A study of Mus musculus with 24 samples.

Results

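The genes described here are 8 that astrocytes use to clear transmitters, buffer ions and water, join to each other and keep their shape. They are Slc1a2, Slc1a3, Gfap, Aqp4, Gja1, Slc6a11, Slc4a4 and Glul. They were taken by name, with earlier results of these data known, from a table of 32962 genes counted in single nuclei of mouse lumbar spinal cord. Each gene was followed through the 7 cell classes that the authors assigned, and then, inside the astrocyte class, across the 3 groups of mice.

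Nuclei came from 24 adult ICR/CD-1 mice of both sexes, 8 to 11 weeks old, with dorsal root ganglia taken off the cord. The tissue field of the labels reads brain, whereas the protocol and the title name spinal cord. In the control group were 9 mice. In the formalin group were 10 mice that had 30 µl of 2% paraformaldehyde injected into the soles of both hindpaws. In the rotarod group were 5 mice placed on a rod that sped up to 40 turns per minute over 5 minutes. Formalin and rotarod mice had been habituated beforehand, and the sources used here do not state the time from challenge to collection. Each sample is taken as 1 mouse, which the labels do not state. The control titles carry the letters f or m, with no key, and those of the other groups carry none. Day and batch are not listed, so neither these nor sex entered a comparison. The titles of controls 7 to 9 end in cx and are also not explained. In astrocytes, controls 7 and 8 differed from controls 1 to 6 by a chi-square of 2.27 to 5.02 per degree of freedom, from each other by 2.05, and controls 1 to 6 among themselves by 1.81 to 3.97. Without controls 7 to 9, 0 of the 8 genes gained or lost a call in astrocytes. Control 9, with 6 astrocyte nuclei, was in no astrocyte fit, so only controls 7 and 8 were removed. The 1 call among the 8 genes was formalin against rotarod, which controls enter only through the shared fit, so it was little tested by this.

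Astrocytes take up glutamate through the transporters GLT-1 (Slc1a2) and GLAST (Slc1a3) and convert it to glutamine with glutamine synthetase (Glul). They take up GABA through GAT-3 (Slc6a11). NBCe1 (Slc4a4) carries sodium with bicarbonate, aquaporin-4 (Aqp4) passes water at the endfeet that face blood vessels and meninges, connexin 43 (Gja1) forms gap junctions, and GFAP (Gfap) is the intermediate filament whose level is a classic sign of astrocyte reactivity.

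The 3 promoters shown here belong to the member whose level separated 2 groups of mice (Slc6a11), the filament gene (Gfap) and the member whose order over the cell classes differed from the others (Glul). Each is the 250 bases before the RefSeq gene start on GRCm38.p6, written 5′ to 3′ on the gene's strand. Capitals mark TTGGC or its reverse complement GCCAA, the half-site letters of nuclear factor I, a factor family of astrocyte development. The windows are chr6:114130991-114131240 on the plus strand for Slc6a11, chr11:102897201-102897450 on the minus strand for Gfap and chr1:153899679-153899928 on the plus strand for Glul.
Slc6a11: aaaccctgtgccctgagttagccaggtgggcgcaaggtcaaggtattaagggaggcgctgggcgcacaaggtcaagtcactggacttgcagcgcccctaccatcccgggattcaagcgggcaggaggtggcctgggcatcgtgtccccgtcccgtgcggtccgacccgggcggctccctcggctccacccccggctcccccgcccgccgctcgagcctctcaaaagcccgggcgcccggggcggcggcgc
Gfap: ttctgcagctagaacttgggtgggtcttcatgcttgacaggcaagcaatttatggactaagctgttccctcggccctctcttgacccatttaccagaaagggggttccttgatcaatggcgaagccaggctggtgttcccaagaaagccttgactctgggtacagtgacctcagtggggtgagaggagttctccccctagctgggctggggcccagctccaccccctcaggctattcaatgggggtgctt
Glul: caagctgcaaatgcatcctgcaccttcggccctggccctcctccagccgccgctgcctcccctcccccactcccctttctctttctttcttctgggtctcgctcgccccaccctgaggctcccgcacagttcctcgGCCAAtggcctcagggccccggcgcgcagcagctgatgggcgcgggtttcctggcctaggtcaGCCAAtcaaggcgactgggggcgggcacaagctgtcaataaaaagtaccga
The Glul window held 2 of these half-sites, starting 114 and 51 bases before the gene start, and the Slc6a11 and Gfap windows held 0. Across 7 of the members, 4 of 8 listed promoter windows held at least 1 half-site, beside 41.5% of all 32851 mouse promoter windows of this length. ACAAAG, letters bound by SOX factors, was in 0 of the 8 windows and in 16.5% of all windows, both strands read. A match or its absence says nothing about a factor's binding. No sequence is printed for Aqp4.

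In GENCODE M21 on GRCm38, all 8 were protein-coding genes. Slc6a11 spanned chr6:114131241-114249952, Slc4a4 chr5:88886818-89239653, Slc1a2 chr2:102658659-102790784 and Slc1a3 chr15:8634124-8710764. Gja1 lay at chr10:56377330-56402513, Gfap at chr11:102887336-102900912, and Glul at chr1:153899944-153909723. The span from first to last base ran from 9.78 kb for Glul, 13.6 kb for Gfap, 21.5 kb for Aqp4 and 25.2 kb for Gja1 to 76.6 kb for Slc1a3, 119 kb for Slc6a11, 132 kb for Slc1a2 and 353 kb for Slc4a4. Counted genes on the opposite strand overlapped Glul (Teddm2, at its start), Slc1a2 (Gm13872), Slc6a11 (the pseudogene Gm8132) and Gfap (Gm26668, over its whole length). The sources used here do not say whether counting used the strand, so reads of these partners could not be told apart.

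Of 18000 nuclei, 750 per library, 13425 had a class, 3818 were marked as discarded and 757 carried no label. Astrocytes numbered 1224, with a median of 1214.5 UMIs (unique molecular identifiers, 1 per captured RNA molecule) per nucleus. The table shows 19 of 17977 different barcodes in more than 1 library, and at most 4 between any pair of libraries. Levels are given as CPM, the UMIs of a gene per 1000000 UMIs of a mouse's nuclei in a class, for mice with at least 10 such nuclei. That left 23 mice for astrocytes, since control mouse 9 had 6. A list of 12 astrocyte markers outside the 8 genes (Aldh1l1, Sox9 and others), of which all were detected, stood at 11774 CPM in astrocytes and 1230 in neurons. Since these same nuclei were clustered to make the classes, this describes the class and is no independent check of its label. Astrocyte nuclei also held 2181 CPM of 8 neuron markers and 3261 of 8 oligodendrocyte markers. Hox genes of the lumbar cord (7 of 9 in the table) stood at 196 CPM in astrocytes and 6 forebrain genes at 7.48, with 2 of those 6 detected. The classes were made by clustering, so levels between classes are given as description, with no test.

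**Figure D1:**
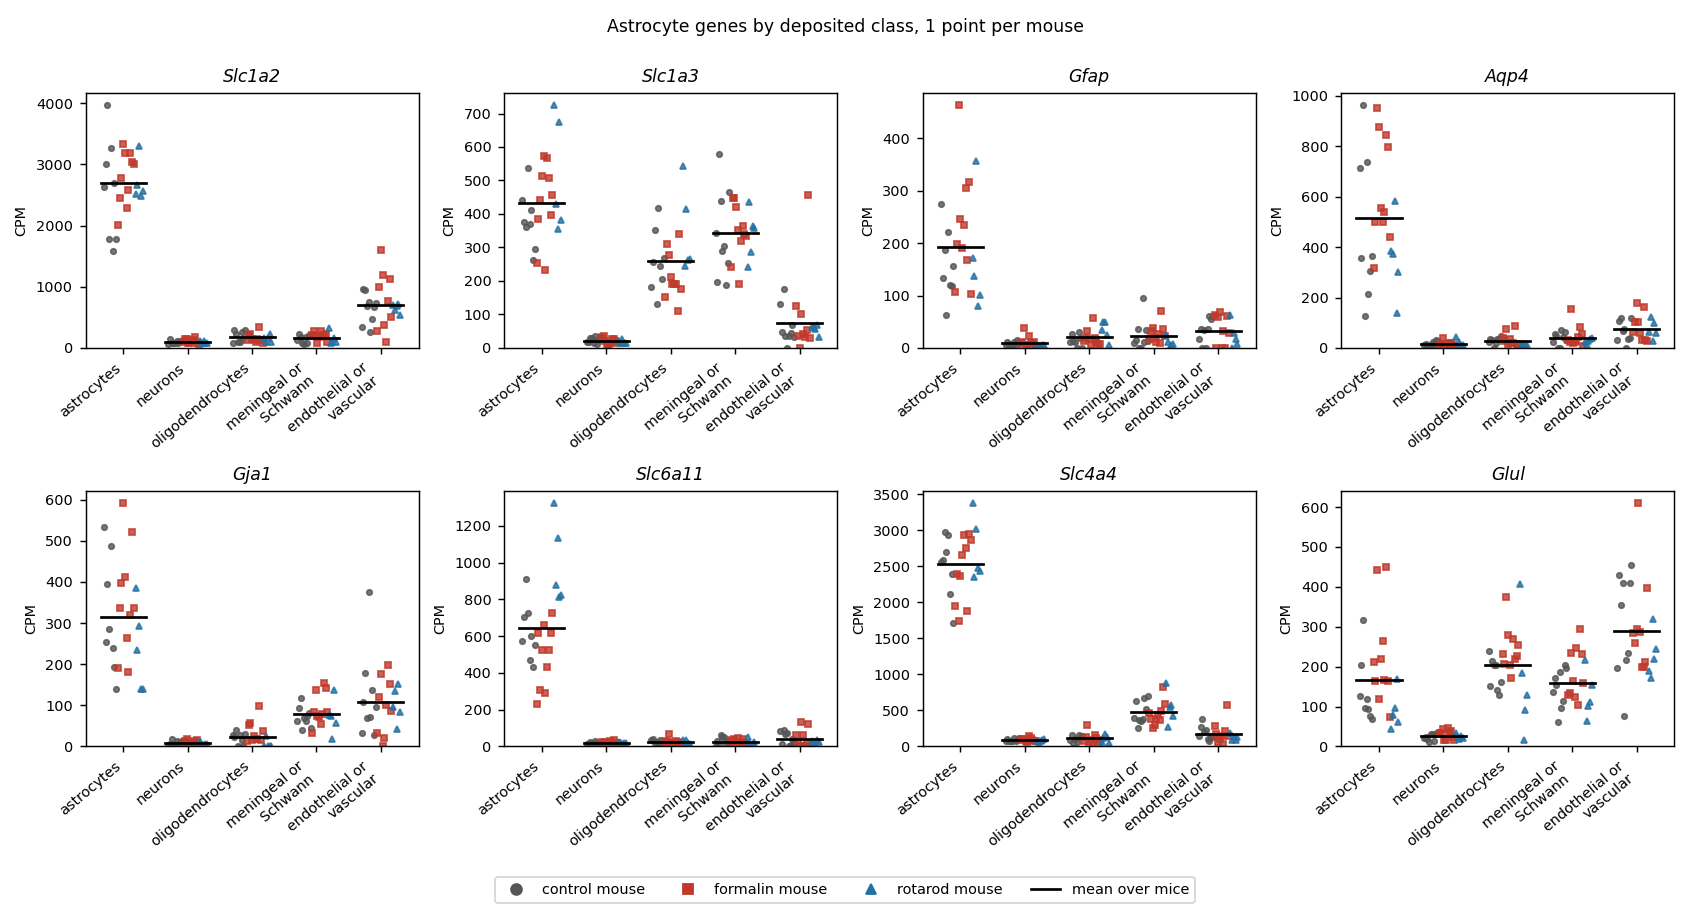
CPM (vertical axis, linear, its own scale in each panel) of the 8 genes in 5 deposited cell classes, with 1 point per mouse, shapes for the 3 groups and a black line at the mean over mice. Astrocytes have the highest mean for 7 genes, while for Glul the endothelial mean (290) and the oligodendrocyte mean (205) exceed the astrocyte mean (166).

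Among the glutamate transporters, Slc1a2 was the one that stood apart. Its level in astrocytes was 2701 ± 575 CPM (SD, n = 23 mice), with a lowest mouse at 1585 and a highest at 3976. It was 696 ± 340 in the endothelial and vascular class (n = 23), 171 ± 75.8 in oligodendrocytes (n = 23), 170 ± 73.8 in meningeal and Schwann cells (n = 24) and 103 ± 29.9 in neurons (n = 24). Every mouse with both classes had more in its astrocytes than in each of these 4. Oligodendrocytes, meningeal and Schwann cells, and neurons, neighbours in this order, had overlapping ranges of mean ± SD. These classes were not compared within mice, so the overlap does not show equal levels.

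Slc1a3 did not behave like Slc1a2. Its level was 433 ± 126 CPM in astrocytes (n = 23), 342 ± 98.6 in meningeal and Schwann cells (n = 24) and 258 ± 102 in oligodendrocytes (n = 23). The spreads of these neighbours overlapped, and astrocytes were the higher in 19 of 23 mice against the meningeal and Schwann class and in 21 of 23 against oligodendrocytes. The endothelial class had 75.1 ± 92.8 (n = 23) and neurons 21.9 ± 8.21 (n = 24). Of all Slc1a3 UMIs of classified nuclei, astrocytes held 25.0%, and the meningeal and Schwann class held 30.9%.

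Glul, which makes glutamine from the glutamate taken up, had another order again. It averaged 290 ± 119 CPM in the endothelial and vascular class (n = 23), 205 ± 83.8 in oligodendrocytes (n = 23), 166 ± 112 in astrocytes (n = 23) and 158 ± 59.6 in meningeal and Schwann cells (n = 24). Only neurons, at 26.7 ± 9.48 (n = 24), lay below with no overlap of the spreads. Astrocytes were lower than the endothelial class in 19 of 22 mice with both classes and lower than oligodendrocytes in 15 of 23. Astrocytes held 12.5% of the classified Glul UMIs, oligodendrocytes 25.3%.

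The GABA transporter Slc6a11 was at 647 ± 259 CPM in astrocytes (n = 23), and its next class, endothelial and vascular cells, was at 40.8 ± 39.2 (n = 23). Meningeal and Schwann cells, oligodendrocytes and neurons were at 25.6 ± 17.7, 24.8 ± 12.7 and 18.9 ± 7.71. The ranges of mean ± SD of those 4 classes overlapped, and the classes were not compared within mice. Of the classified Slc6a11 UMIs, 63.6% were in astrocytes.

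The bicarbonate carrier Slc4a4 was at 2526 ± 436 CPM in astrocytes (n = 23). Its next class was meningeal and Schwann cells, at 476 ± 171 (n = 24), followed by the endothelial class at 176 ± 119, oligodendrocytes at 110 ± 55.6 and neurons at 87.0 ± 21.6. Aqp4 was at 516 ± 253 in astrocytes, with the endothelial class next at 75.2 ± 45.9. In every mouse with both classes, each of these genes was higher in astrocytes than in the other 4 large classes.

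Gja1 was at 316 ± 132 CPM in astrocytes (n = 23) and at 108 ± 80.0 in the endothelial class (n = 23), where astrocytes were higher in 20 of 22 mice. Meningeal and Schwann cells had 79.9 ± 35.2, oligodendrocytes 23.6 ± 23.0 and neurons 8.23 ± 4.96. Gfap was at 193 ± 98.6 in astrocytes, and the endothelial class, next in order, was at 31.7 ± 25.4. Between mice, astrocyte Gfap ran from 63.4 (2 UMIs) to 464 (21 UMIs), and no mouse had more than 41 UMIs. A single UMI was worth 6.36 to 42.7 CPM, by mouse.

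The 2 smallest classes allowed pooled values only as a rule, since 6 mice had at least 10 oligodendrocyte precursors and 4 had at least 10 microglia. Pooled over mice, Slc1a2 was at 332 CPM in the precursors (95% exact Poisson interval 255 to 425, counting error only) and at 328 in microglia (255 to 416). Slc6a11 was at 36.9 (14.9 to 76.1) and 62.7 (33.4 to 107). Gfap was at 15.8 (3.26 to 46.3) and 57.9 (29.9 to 101). All of these lay under the astrocyte means, whereas the interval of Glul in microglia, at 135 (89.8 to 195), held the astrocyte mean.

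Nuclei without a label also held RNA of these genes. In the 13 mice with at least 10 of them, Slc1a2 was at 2228 ± 1134 CPM, Slc4a4 at 547 ± 272, Aqp4 at 284 ± 182 and Slc6a11 at 127 ± 90.2. Glul was at 561 ± 283 there, higher than in astrocytes in 11 of 12 mice with both. Over the same nuclei the astrocyte markers summed to 4013 and the oligodendrocyte markers to 14818 CPM, and the median depth was 538 UMIs. Of the 757 such nuclei, 498 (65.8%) were from rotarod mice, 196 of them from rotarod mouse 2 and 163 from rotarod mouse 3.

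The combined meningeal and Schwann class was uneven for these genes. Its nuclei were divided by which marker list, Schwann, meningeal or ependymal, had the most UMIs (at least 2, no tie). Slc1a3 was at 66.5 CPM where Schwann markers led (671 nuclei; 95% Poisson interval 51.5 to 84.4), at 557 where meningeal markers led (629 nuclei; 513 to 604) and at 368 where ependymal markers led (254 nuclei; 314 to 429). Slc4a4 was at 155, 559 and 556 in the same order, and at 1291 (1174 to 1417) in the 285 nuclei where no list led. Glul was at 240 (211 to 272) where meningeal markers led, against 69.4 (54.1 to 87.7) and 62.5 (41.5 to 90.4) for the Schwann and ependymal lists. Gja1 was at 161 (126 to 202) where ependymal markers led and at 23.8 (15.3 to 35.4) where Schwann markers led, while Gfap stayed between 14.5 and 29.0 in all 4 sets. These are ranges of a score, not cell types, and 231 nuclei were within 1 UMI of another set.

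**Figure D2:**
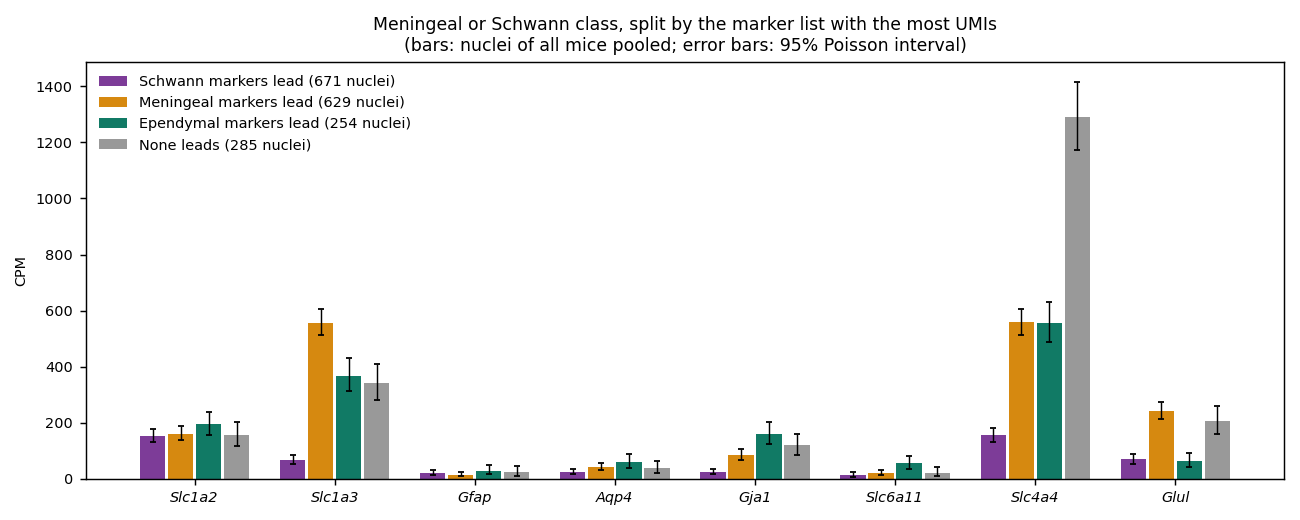
CPM (vertical axis, from 0) of the 8 genes in the meningeal and Schwann class, nuclei of all mice pooled and split by the marker list with the most UMIs, with 95% Poisson intervals for counting error. Slc1a3 is at 557 where meningeal markers lead and 66.5 where Schwann markers lead, and Slc4a4 reaches 1291 where no list leads.

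The transporters had low CPM in neuron nuclei, and the order of the neuron families depended on the scale. Of the classified UMIs, neurons still held 24.4% for Slc1a2, 22.9% for Slc4a4 and 24.6% for Slc6a11. By the authors' neuron families, Slc1a2 ran from 46.7 CPM in ventral excitatory neurons (95% Poisson interval 39.6 to 54.7) to 129 in dorsal excitatory neurons (118 to 141). Slc4a4 ran from 49.8 in the ventral VC family (37.6 to 64.6) to 127 in dorsal inhibitory neurons (114 to 140). Slc6a11 ran from 5.84 in ventral excitatory (3.51 to 9.12) to 26.9 in dorsal inhibitory neurons (21.3 to 33.5). The families differed in depth, from 2733 UMIs per nucleus in dorsal excitatory to 7825 in ventral excitatory neurons. Per nucleus, Slc1a2 was at 0.353 UMIs in dorsal excitatory, 0.352 in dorsal inhibitory and 0.365 in ventral excitatory neurons, with 0.505 in the VM family. Slc4a4 was at 0.409 in dorsal inhibitory and 0.435 in ventral excitatory neurons. Slc6a11 was at 0.0865 per nucleus in dorsal inhibitory neurons and at 0.138 in the VM family (15 UMIs in 109 nuclei). A dorsal family was highest in CPM for each of these 3 genes, and a ventral family was highest per nucleus. As means over mice, astrocytes exceeded neurons 26.2-fold for Slc1a2, 29.0-fold for Slc4a4 and 34.2-fold for Slc6a11. Pooled over mice, the neuron level was 2.40% to 4.87% of the astrocyte level for 7 of the genes and 15.3% for Glul. Free RNA also gives UMIs in nuclei that do not express a gene, its part in these values was not tested, and they are not read as expression by neurons. The family values pool nuclei, so their intervals do not cover variation between mice.

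To compare nuclei of unequal depth, each was thinned to 500 UMIs, which kept 1137 astrocytes and 6947 neurons. After thinning, a Slc1a2 UMI was seen in 68.7% of astrocytes and 6.12% of neurons, and a Slc4a4 UMI in 65.2% and 4.74%. Aqp4 was seen in 22.7% against 0.950%, Slc6a11 in 22.6% against 1.22%, Slc1a3 in 16.4% against 1.34% and Gja1 in 15.0% against 0.389%. Glul was seen in 8.36% against 1.63% and Gfap in 8.09% against 0.605%. At least 1 of the 8 genes was seen in 96.3% of astrocytes and in 15.4% of neurons. Unthinned, these last shares were 99.4% and 46.8%, at median depths of 1214.5 and 2214 UMIs. Most thinned astrocytes showed 2 (406 nuclei) or 3 (321) of the 8 genes, 233 showed 1, and 42 showed 0.

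Within astrocytes, the thinned nuclei with a Gfap UMI differed from those without. The 92 nuclei with Gfap had Aqp4 at 1304 CPM against 553 in the 1045 without, a ratio of 2.36. Their Gja1 was at 478 against 339, a ratio of 1.41. Both ratios leaned on pooled nuclei, because Aqp4 and Gja1 were each higher in 5 of the 8 mice with at least 5 nuclei on either side. In contrast, Slc6a11 was at 239 (11 UMIs) against 601 (314 UMIs), a ratio of 0.398, and was lower in 8 of 8 mice. Slc1a3, Slc1a2 and Slc4a4 had ratios of 0.546, 0.752 and 0.784, each lower in 7 of 8 mice. Glul, with 8 UMIs in the nuclei with Gfap, had a ratio of 0.937 and was still lower in 6 of 8 mice. Nuclei with Gfap were few in each mouse, so these counts of mice are not read as agreement between mice.

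The reverse split reads the same nuclei and the same joint counts, so it restates the pair and is no second observation of it. The 257 nuclei with a Slc6a11 UMI had Gfap at 77.8 CPM (10 UMIs) against 216 (95 UMIs) in the 880 without. The pooled ratio was 0.36, and Gfap was lower in the nuclei with Slc6a11 in 14 of 22 mice, higher in 6 and equal in 2. Aqp4 was at 467 against 657, lower in 16 of 22 mice. Cells of a mouse are not replicates and these genes may also have shaped the clusters, so the splits are descriptions and carry no test.

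**Figure D3:**
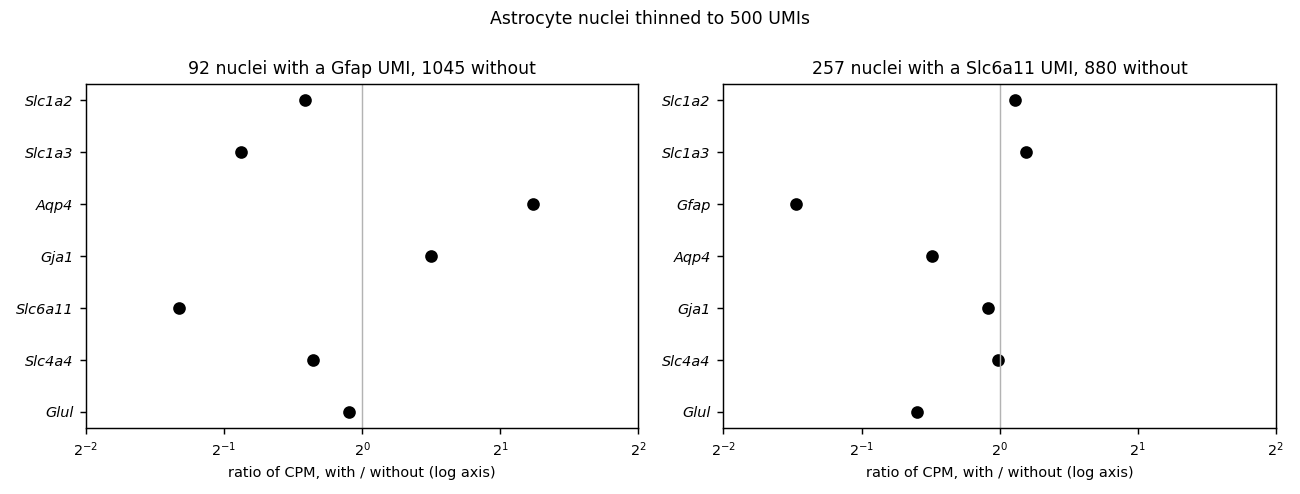
Ratio of CPM (horizontal axis, log scale) for the other genes between astrocyte nuclei with and without a Gfap UMI (left, 92 and 1045 nuclei) and with and without a Slc6a11 UMI (right, 257 and 880 nuclei), all thinned to 500 UMIs. With Gfap, Aqp4 lies at 2.36 and Slc6a11 at 0.398, and with Slc6a11, Gfap lies at 0.36.

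Over the 7 classes, the profile most like the mean of the 8 genes was that of Irak2 (Pearson r = 0.987), followed by Tlr3 (0.982), Cep85l (0.976), Sox9 (0.974) and Sdc4 (0.965), among 10130 genes ranked. Sox9 encodes a transcription factor of glia and is 1 of the astrocyte markers. Of the members themselves, Gja1 (0.961), Aqp4 (0.952), Gfap (0.946) and Slc4a4 (0.929) followed the mean profile most closely. Slc1a2 (0.894), Slc6a11 (0.805), Glul (0.789) and Slc1a3 (0.785) followed it less. The mean of the 8 genes includes each member itself, so the members' coefficients cannot be set against those of genes outside it. The profiles are means over mice and include the smallest classes. In oligodendrocyte precursors Slc6a11 was at 0 in the 6 mice with enough nuclei, beside 36.9 CPM pooled over all mice. The part of such near-floor values in the coefficients was not tested. The 7 points share libraries and differ in depth, so these coefficients only describe likeness.

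The study asked how cord cells respond to a painful stimulus and to a motor task. In astrocytes, 0 of these 8 genes were called against control after either challenge. Formalin against rotarod called 1, the GABA transporter Slc6a11, which was lower after formalin, and several alternative fits lost that call. A difference between the challenges does not show a response to either. The other 7 passed the threshold in no comparison. All 8 genes passed the filter on low counts, with 1804 genes tested. The control, formalin and rotarod groups had 8, 10 and 5 mice with 477, 556 and 185 astrocyte nuclei. Their UMIs per mouse ran from 31555 to 157158, from 34173 to 107097 and from 23425 to 100944, so the rotarod values rest on the fewest mice and nuclei. Formalin and rotarod are both set against the same controls, which links those 2 comparisons.

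Slc6a11 was at 1323, 880, 1135, 812 and 823 CPM in rotarod mice 1 to 5, from 31, 45, 35, 82 and 41 UMIs. In the 10 formalin mice it ran from 233 to 728, with a median of 524. In the 8 control mice it ran from 430 to 909, with a median of 587. Every rotarod mouse was above every formalin mouse, while the controls overlapped both groups.

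The group means were 995 ± 226 for rotarod (n = 5), 622 ± 155 for control (n = 8) and 493 ± 170 for formalin (n = 10). Against rotarod, formalin had a log2 fold change of −0.93 (SE 0.21), with an adjusted p of 0.0122 in edgeR's quasi-likelihood test with Benjamini-Hochberg adjustment over all genes. This comparison called 24 genes, 6 higher and 18 lower in formalin, which is 1.33% of those tested, and 1 of the 8 members was among them. Values that did not overlap between these 2 groups were found for 0.721% of genes. Against control, rotarod had a log2 fold change of 0.65 (SE 0.22; adjusted p = 0.355) and formalin of −0.28 (SE 0.18; adjusted p = 0.934), so neither group was shown to differ from control.

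The call was lost without rotarod mouse 1 (log2 fold change −0.81, adjusted p = 0.0666) and without rotarod mice 2 and 3, the mice with the most unlabelled nuclei (−0.91, adjusted p = 0.179). It was also lost with nuclei thinned to 500 UMIs (−0.81, adjusted p = 0.131), with no filter on low counts (−0.80, adjusted p = 0.258) and with samples 1 to 5 of each group alone (−0.96, adjusted p = 0.0694). Formalin samples n and n + 5 deviated together in astrocytes. The labels do not say whether such a pair is 2 mice or 2 libraries of 1 mouse, so the 10 formalin mice counted here may be 5, with SDs and counts over 10 to be read with that limit. With each pair merged, Slc6a11 averaged 494 ± 163 CPM (n = 5), ran from 258 to 694 and stayed below every rotarod mouse, and the estimate was −0.94 (adjusted p = 0.0473).

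**Figure D4:**
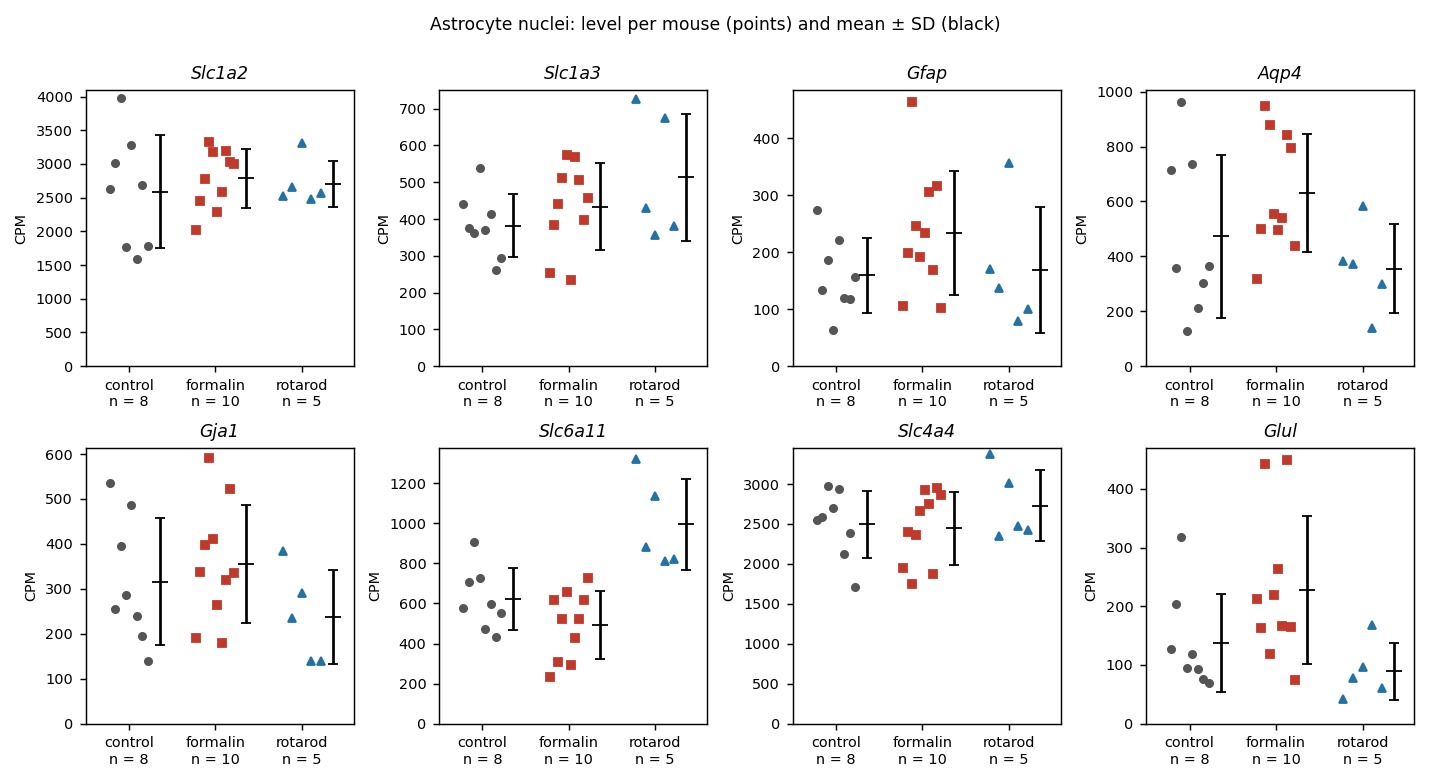
CPM in astrocyte nuclei (vertical axis, from 0, its own scale in each panel) for the 8 genes, with 1 point per mouse and the mean ± SD in black for control (n = 8), formalin (n = 10) and rotarod (n = 5). The 5 rotarod points of Slc6a11 start at 812, above the highest formalin point at 728, and for the other 7 genes the groups overlap.

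Several measures moved beside this result. The astrocyte share of classified nuclei was 9.85% ± 3.93 in control mice (SD, n = 8), 11.2% ± 1.24 after formalin (n = 10) and 6.98% ± 2.26 after rotarod (n = 5). The 12 astrocyte markers summed to between 10906 and 12407 CPM in control, 7133 and 13969 in formalin and 10791 and 14995 in rotarod mice, and all 12 were detected in each group. The 8 neuron markers ran from 1268 to 3677, from 1291 to 3308 and from 1232 to 2090, all 8 being detected in each group. Of the 5 neuron markers that could be tested, 5 had negative log2 fold changes in rotarod against control (median −0.71 beside −0.01 over all genes), and 4 had positive ones in formalin against rotarod (median 0.62 beside 0.01). The 7 meningeal markers ran from 76.4 to 221, from 151 to 375 and from 137 to 258, and Lum and Slc6a13 were at 0 in the formalin and rotarod groups. The 8 oligodendrocyte markers ran from 1623 to 7641, from 1261 to 4284 and from 2140 to 5550. The 9 endothelial markers ran from 197 to 502, from 168 to 527 and from 227 to 1067, with Cldn5 at 0 in the control and rotarod groups. The part of these lists in the Slc6a11 difference was not tested. In neurons, Slc6a11 was at 19.7 ± 9.40 after formalin (n = 10) and 19.4 ± 4.15 after rotarod (n = 5).

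The 4 members with the shortest genes lay on the other side of the same comparison without passing it. Glul was at 42.7, 78.2, 97.3, 168 and 60.2 CPM in rotarod mice 1 to 5. In formalin mice it ran from 74.7 to 450 with a median of 189, and in control mice from 69.3 to 318 with a median of 107. Of the formalin mice, 9 of 10 were above the rotarod median, and the ranges overlapped. Formalin over rotarod was 0.99 on the log2 scale (SE 0.42), which did not pass in edgeR (adjusted p = 0.329).

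Aqp4 was at 384, 371, 584, 139 and 301 CPM in rotarod mice 1 to 5. It ran from 318 to 950 in formalin mice (median 548) and from 127 to 964 in control mice (median 360). Again 9 of 10 formalin mice lay above the rotarod median, with overlap, and the log2 fold change was 0.95 (SE 0.41; edgeR adjusted p = 0.347).

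Gja1 was at 384, 235, 292, 139 and 141 CPM in rotarod mice 1 to 5. It ran from 180 to 591 in formalin mice (median 337) and from 139 to 535 in control mice (median 270). The log2 fold change of formalin over rotarod was 0.76 (SE 0.32; edgeR adjusted p = 0.322), with 8 of 10 formalin mice above the rotarod median.

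Gfap, the reactivity gene, was at 171, 137, 357, 79.3 and 100 CPM in rotarod mice 1 to 5. It ran from 103 to 464 in formalin mice (median 216) and from 63.4 to 274 in control mice (median 145). The groups overlapped in all 3 comparisons. Its log2 fold change was 0.44 (SE 0.26; edgeR adjusted p = 0.934) for formalin over control and 0.62 (SE 0.36; edgeR adjusted p = 0.460) for formalin over rotarod.

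Slc1a2, Slc4a4 and Slc1a3 passed the threshold in none of the 3 comparisons. Slc1a2 averaged 2591 ± 837 CPM in control, 2785 ± 438 in formalin and 2708 ± 341 in rotarod mice, with log2 fold changes between 0.04 and 0.09. Slc4a4 averaged 2497 ± 421, 2448 ± 456 and 2728 ± 446, with log2 fold changes from −0.16 to 0.12. Slc1a3 averaged 382 ± 86.0, 433 ± 118 and 513 ± 173, and its log2 fold change of rotarod over control was 0.47 (SE 0.23; edgeR adjusted p = 0.57).

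Formalin against control called 0 of the 8 members and 0 genes in all (0%) in edgeR, with 82 genes and 0 members at an unadjusted p under 0.05, and DESeq2 also called 0. Here 6 members had positive log2 fold changes and 2 negative ones, with a median of 0.20 beside 0.00 over all genes. Rotarod against control called 0 members and 7 genes, 6 higher and 1 lower (0.388%), with 2 members (Slc6a11 and Slc1a3) and 151 genes at an unadjusted p under 0.05. By DESeq2 it was 0 members and 3 genes. The members' median there was −0.06 beside −0.01. Formalin against rotarod gave a members' median of 0.33 beside 0.01, with 5 positive and 3 negative, and 4 members (Slc6a11, Aqp4, Gja1 and Glul) and 222 genes had an unadjusted p under 0.05.

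**Figure D5:**
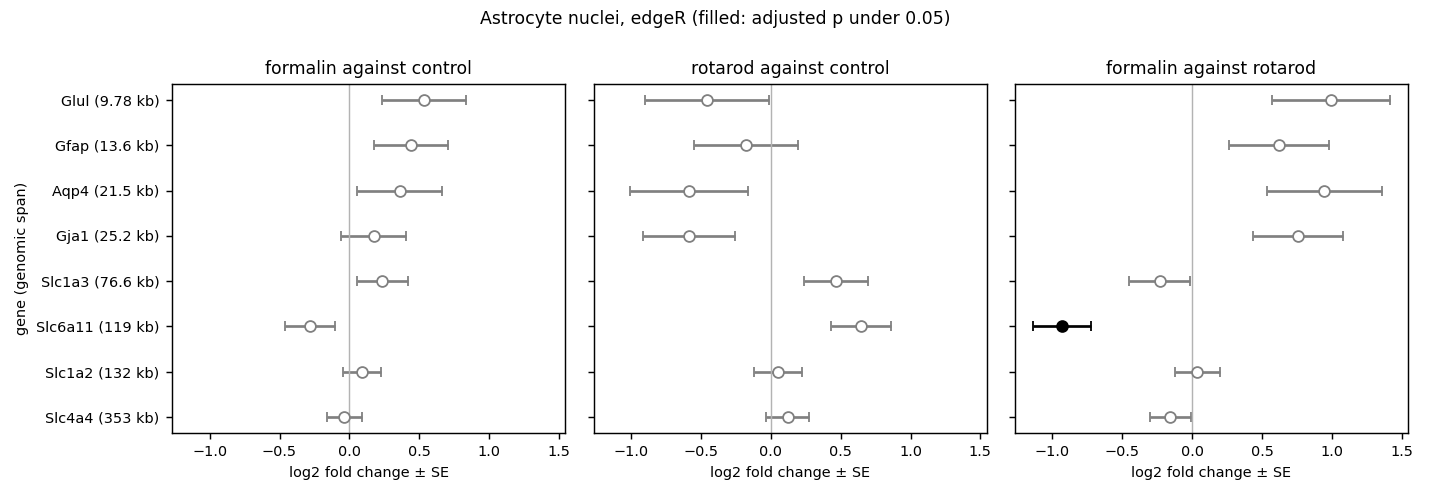
Log2 fold change ± SE in astrocyte nuclei from edgeR (horizontal axis) for the 8 genes, ordered from the shortest to the longest gene, in the 3 comparisons, with a filled point where the adjusted p is under 0.05. In formalin against rotarod, Slc6a11 at −0.93 is the only filled point and the 4 shortest genes lie between 0.62 and 0.99.

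The length of a gene on the chromosome moved with the fold changes of all genes. For formalin against rotarod, genes were put in 4 groups of equal size by span. From the shortest to the longest group the median log2 fold change was 0.15, 0.03, −0.04 and −0.04, with 14, 6, 3 and 1 calls. Spearman's rho between span and fold change across genes, which are not independent replicates, was −0.157, and −0.344 for formalin against control and −0.040 for rotarod against control. Glul, Gfap, Aqp4 and Gja1 fell in the shortest group, and with the trend on span removed in each mouse their log2 fold changes were 0.79, 0.41, 0.76 and 0.60 in that order. With the same trend removed, the Slc6a11 log2 fold change was −0.94 and its edgeR adjusted p was 0.00424.

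Among other genes of the same functions, 1 passed the test. Of 16 further genes of glutamate, GABA and glycine handling, 6 could be tested in astrocytes and 0 were called in edgeR in any of the 3 comparisons, in either direction. GABA transaminase (Abat), which breaks down GABA, had a log2 fold change of −0.18 for formalin over rotarod (adjusted p = 0.802). Of 16 genes for ions, water and junctions, 9 could be tested and 1 was called, in formalin against rotarod. That gene was Atp1b2, a subunit of the sodium pump. Atp1b2 ran from 85.4 to 195 CPM in rotarod, from 254 to 883 in formalin and from 127 to 570 in control mice. Its log2 fold change of formalin over rotarod was 1.89 (SE 0.41; edgeR adjusted p = 0.0144). The potassium channel Kcnj10, a partner of Aqp4 at endfeet, had −0.13 (adjusted p = 0.854). Of 18 genes of reactive astrocytes only Stat3 could be tested, and it was not called. Their summed level was 324 ± 89.4 CPM in control, 362 ± 98 in formalin and 370 ± 123 in rotarod mice. Of 8 neuron markers, 5 could be tested in astrocyte nuclei and Snhg11, a neuronal noncoding RNA, was called, higher in formalin than in rotarod (log2 fold change 1.24; edgeR adjusted p = 0.0376).

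In the other classes 0 of the tested members were called in edgeR. In neurons 6 could be tested, beside 196 genes called (2.15%) of 9103 for formalin against rotarod and 0 called (0%) in the comparisons with control. In oligodendrocytes 4 could be tested, beside 0 (0%), 1 (0.0317%) and 15 (0.475%) of 3158 genes called for formalin against control, rotarod against control and formalin against rotarod. In meningeal and Schwann cells 5 could be tested, beside 0 (0%), 3 (0.0917%) and 2 (0.0611%) of 3273. In the endothelial class 3 could be tested, beside 0 called (0%) of 1334 in each comparison. At an unadjusted p under 0.05 were 1 member in oligodendrocytes for formalin against control and 2 for formalin against rotarod, and 0 members elsewhere in these classes. Of all 3158 genes tested in oligodendrocytes, 178 and 451 were under that cut in the same 2 comparisons, so the member counts are not read as a result. DESeq2 called 0 members in all of them.

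In oligodendrocytes the member with such a p for formalin against control was Glul (log2 fold change 0.42, SE 0.20), and those for formalin against rotarod were Glul and Slc1a3. Glul averaged 244 ± 56.4 CPM after formalin (n = 10), 166 ± 148 after rotarod (n = 5) and 181 ± 40.0 in control (n = 8), and all 10 formalin mice lay above the rotarod median of 130 with overlap of the ranges. Formalin over rotarod was 0.80 on the log2 scale (SE 0.27), with an edgeR adjusted p of 0.153. Rotarod mouse 1 was at 407 CPM (12 UMIs). Without that mouse the rotarod mean was 105 ± 70.1 (n = 4) and the log2 fold change was 1.08 (SE 0.27), which passed (edgeR adjusted p = 0.0435). Of 35 alternative fits of this comparison, 34 called 0 members in oligodendrocytes, as did the main fit, so this pass rests on leaving out the highest rotarod mouse. Slc1a3 averaged 215 ± 72.6, 346 ± 129 and 258 ± 91.5, and formalin over rotarod was −0.58 on the log2 scale (SE 0.23), with an edgeR adjusted p of 0.222. In astrocytes the corresponding estimates were 0.99 and −0.23. Whether any effect differed between astrocytes and another class was not tested.

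Seen per nucleus and thinned to 500 UMIs, a Slc6a11 UMI was found in 29.6% of 162 rotarod astrocytes, 22.2% of 446 control astrocytes and 20.8% of 529 formalin astrocytes. An Aqp4 UMI was found in 11.1%, 23.8% and 25.3% in the same order, and a Gja1 UMI in 8.02%, 15.5% and 16.8%. A Slc1a3 UMI was found in 24.1%, 12.8% and 17.2%. The shares were 6.17%, 8.97% and 7.94% for Gfap, and 6.79%, 8.07% and 9.07% for Glul. They were 75.3%, 67.0% and 68.1% for Slc1a2, and 66.7%, 68.6% and 61.8% for Slc4a4. The thinned Gfap share, from 42 formalin and 40 control nuclei with a UMI, was lower in formalin, unlike its log2 fold change of CPM. Without thinning the order was reversed, with 19.4% in formalin and 16.4% in control, so the thinned order is not read as a difference. Unthinned, the Slc6a11 shares were 53.5%, 48.7% and 39.4%. Shares pool nuclei over mice and left out 23 shallower nuclei in rotarod, 37 in control (mouse 9 included here) and 27 in formalin, so they are descriptions of the groups' nuclei.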

How the data were processed

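The authors deposited raw UMI counts per gene and nucleus from Drop-seq, with a table of cell classes, per the labels and the file headers. The genome builds mm10 and GRCm38 are named in the submitters' processing notes. Not given in the sources used here were the aligner, annotation, intron and strand settings. The classes came from SC3 clusters, per the file headers. Nuclei marked discarded or left without a label were kept apart, and doublets were not called again. Nuclear counts can include unspliced RNA, so long genes may gain counts.

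Counts were summed per mouse and class (at least 10 nuclei) and given as CPM (UMIs per 1000000 UMIs of the mouse and class). Groups were compared with edgeR 4.0.16 in R 4.3.3 (quasi-likelihood test, robust, TMM, filterByExpr by group, 1 fit over the 3 groups), with Benjamini-Hochberg adjustment over all genes tested and a threshold of 0.05. The procedure was tested on simulated data. DESeq2 1.42.0, other scalings, no filter, at least 20 nuclei, thinning to 500 UMIs, leaving out each mouse, merged formalin samples and a replicate block were alternatives. Removing the trend on span, leaving out rotarod mice 2 and 3, and samples 1 to 5 alone were alternatives chosen after seeing the data. Likeness used log2(CPM + 1) for genes reaching 20 CPM in a class. The labels do not say that samples came from pooled animals, and samples are taken as separate mice, so p-values measure the spread between these samples. Intervals are 95% and cover counting error only.

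All 8 members are named in every comparison, with the called genes of the other lists and the 5 most similar class profiles. The members and lists were chosen with earlier results of these data known. Promoters are from RefSeq (GRCm38.p6) and positions from GENCODE M21, in which 98.8% of tested genes had a span.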

Additional observations from a re-analysis of the deposited data

Results flagged for a closer look

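Slc1a2 in astrocytes was at 3307 CPM (102 UMIs) in rotarod mouse 3, far from the other 4 rotarod mice, of which the nearest was at 2659. The gap was 0.790 of the whole range of the group. It lay inside the ranges of the control and formalin mice. Of 24 groups examined this was the only such sample, and chance flags about 1 in 20 groups.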

How the results depend on the processing

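The log2 fold changes of the members in astrocytes kept their call in 783 of 789 recomputed values, and none that passed turned direction. The 6 others were all Slc6a11 in formalin against rotarod, whose adjusted p over the alternatives ran from 0.00424 to 0.258 and whose log2 fold change ran from −1.01 to −0.80. All 216 recomputed astrocyte levels moved by less than 1 SD between mice. The count of members called there, 1, became 0 with no filter, with thinning, with samples 1 to 5 alone, with rotarod mice 2 and 3 left out and with the replicate block. Leaving out 1 mouse gave 0 to 1 (0 without rotarod mouse 1). The 24 genes called became 6 with thinning, 14 with merged formalin samples, 4 with samples 1 to 5 alone and 4 without rotarod mice 2 and 3. Leaving out 1 mouse gave 8 to 25 (13 without rotarod mouse 1, 8 without mouse 2 and 14 without mouse 3). For rotarod against control, the 7 genes called became 3 in DESeq2, 2 with no filter, 0 with thinning and 0 without rotarod mice 2 and 3. Leaving out 1 mouse gave 2 to 9 (3 without control mouse 1 or control mouse 3, 2 without rotarod mouse 1 or rotarod mouse 3). For formalin against control the range was 0 to 1 (1 without control mouse 2 or formalin mouse 7). In oligodendrocytes, the count of members called in formalin against rotarod ran from 0 to 1 (1, Glul, without rotarod mouse 1). The other counts of members called stayed at 0 under the alternatives run. Fewer samples or fewer UMIs entered several of these fits, and otherwise the cause was not tested.

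Formalin and rotarod samples share the numbers 1 to 5, and the labels do not say whether the numbers pair them. Deviations of same-numbered samples in astrocytes had correlations from −0.115 to 0.0468 over 1552 genes. These few values from a single class cannot decide whether such samples shared a day or batch. With the replicate block, 5 genes were called and the Slc6a11 log2 fold change was −0.999 with an adjusted p of 0.175. Formalin samples n and n + 5 had correlations from 0.0706 to 0.308, and by this measure 10 of 10 were closest to that partner. This is a hint from the data, not from the labels, that each pair may be 2 libraries of 1 mouse. By the chi-square per degree of freedom used for the controls, formalin sample 7 was closer to formalin sample 6 (1.70) than to formalin sample 2 (1.80). Depth limits Gfap and Glul most, at 2 to 41 and 1 to 32 UMIs per mouse.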
